A study of Strongylocentrotus purpuratus and Patiria miniata with 4 samples.

Results

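Sea urchin Tbrain (Tbr) binding at the mesenchyme blastula stage was described from 3149 peaks, out of 17126 peaks listed for the series as a whole. The members are every row of the sea urchin peak list, with no choice by value. The list sets 1 chromatin immunoprecipitation (ChIP) library of Strongylocentrotus purpuratus, made with a custom antibody called anti-SpTbr, against 1 input library of the same species, made from chromatin with no antibody. Both came from whole pooled embryos grown at 15 °C to about 24 hours after fertilization, fixed for 10 minutes in 1% formaldehyde and cut with micrococcal nuclease. Chromatin from 2 to 3 cultures, each fertilized on its own, was pooled before the precipitation. The labels give no genotype, treatment or sorted cell type. There is 1 library on each side, so no spread between replicates could be computed and no test was run. Intervals of fragments below cover counting error only. Those of medians and shares treat peaks or pairs as independent draws, though near neighbours resembled each other, and measure no spread between libraries.

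Tbr is a transcription factor of the T-box family, which binds DNA through the conserved T-box domain. In sea urchin embryos the tbr gene is known for its place in the gene network of the skeletogenic mesenchyme, the cells that enter the blastocoel at this stage and later build the larval skeleton. It acts there beside the regulators Ets1 and Alx1, downstream of the repressor HesC. These cells are a small share of the embryo, and the libraries were made from whole embryos, so a peak does not show which cells carried the protein. Peaks are given by scaffold and position as the list has them. The genome build was not given in the sources used here, and no genome or annotation of it was used, so peaks are not assigned to genes and no sequence is shown.

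Most peaks were of moderate strength, and a small group stood far above the rest. Fold enrichment, the authors' ratio of ChIP signal to background at the summit (the highest point of a peak), had quartiles of 3.43 and 4.97, a 95th percentile of 6.65 and a maximum of 65.2. The authors' −log10 q, the significance corrected over the genome, had a median of 4.51. It was above 20 in 27 peaks, between 10 and 20 in 249, between 5 and 10 in 1076, between 2 and 5 in 1509 and below 2 in 288. Weaker peaks thus made up most of the list: 57.1% of peaks had a −log10 q of 5 or less.

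The number of ChIP fragments over each summit was recovered from the deposited fold enrichment and p-value. It ranged from 8 to 163, with quartiles of 16 and 24. A peak with 20 fragments, the median, has an exact Poisson 95% interval from 12.2 to 30.9, which takes in both quartiles. Differences in fragments between most single peaks are therefore not resolved at this depth. Only 88 peaks had more than 40 fragments, and 6 had more than 100. The genome-wide mean of the ChIP library was 1.51 fragments over a base, by the genome size set in peak calling.

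The listed peaks closest to the limit show what the weakest calls rest on. The lowest −log10 q was that of a peak on Scaffold1454 at 53306 to 53440, with 34 fragments (95% Poisson interval 23.5 to 47.5) where the input held 30, which scales to 17.2. The 15 peaks next above it were tied, each with 17 fragments where the input held 11. Scaled to the ChIP depth, the input at those 15 peaks was 6.29 fragments, which leaves a difference of 10.7 fragments; the list holds only peaks that passed the caller's test of this same difference.

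At most summits the input exceeded the genome-wide mean used in peak calling. The background of a peak is the largest among the genome-wide mean and the input counted, and scaled to the ChIP depth, over 1 fragment length at the summit, over 1 kb and over 10 kb. At 2148 peaks (68.2%) it was the count at the summit itself, and there the number of input fragments could be read as a whole number. The median was 8, with quartiles of 6 and 11 and a range of 3 to 73, against a genome-wide mean of 2.65 input fragments. That mean rests on the genome size set in peak calling, which was not given in the sources used here. Multiples of the mean, here and below, therefore depend on that setting and may not measure a true excess of input. At 650 peaks (20.6%) the 1 kb window set the background, at 171 (5.43%) the 10 kb window, and at 180 (5.72%) the genome-wide mean. The split between the 1 kb and 10 kb windows is approximate. A 10 kb count that is a multiple of 10 gives the same background as a whole 1 kb count, and was put with the 1 kb window. At those 180 peaks no input window exceeded the mean, so the mean stands as a floor and the input itself may be lower. Scaled input below means this background. A summit window with fewer than 3 input fragments cannot exceed the mean, so these 2148 peaks leave out low inputs by construction.

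Fold enrichment and fragments ordered the peaks differently across the range of input. The 180 peaks at the genome-wide mean had a median of 13.5 fragments and a fold enrichment of 5.77. Where the scaled input was 4 to 6 times the mean, 457 peaks had a median of 24 fragments and a fold enrichment of 3.18. At 10 times the mean or more, 48 peaks had a median of 64 fragments and a fold enrichment of 2.55. Over all 3149 peaks, Spearman's rho with scaled input was 0.68 for fragments and −0.62 for fold enrichment. This is a description only: background is the divisor of fold enrichment, and a peak over a dense input needs more fragments to be listed. The 48 peaks of densest input lay on 24 scaffolds, with 8 on Scaffold1117, 7 on Scaffold1453 and 7 on Scaffold518.

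**Figure D1:**
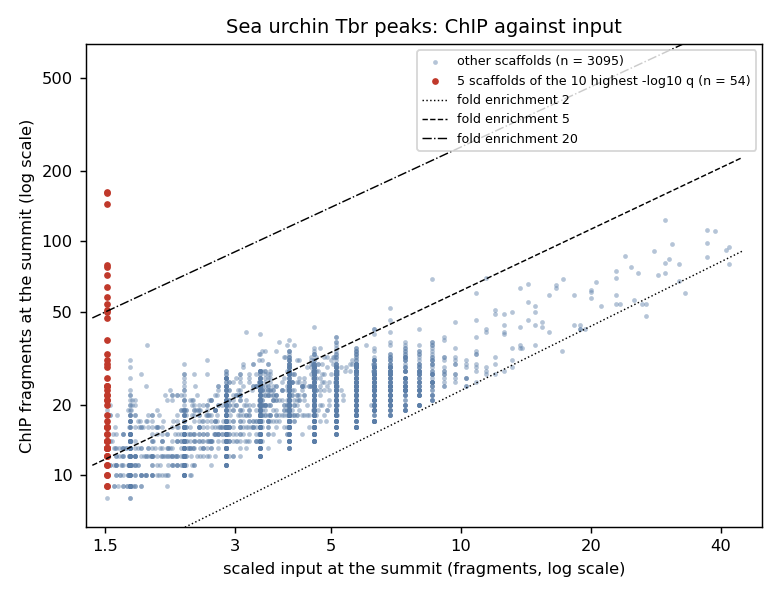
ChIP fragments at the summit (vertical, log scale) against scaled input in fragments (horizontal, log scale) for 3149 sea urchin peaks, 1 point each; red points are the 54 peaks on the 5 scaffolds of the strongest peaks (10 highest −log10 q), blue points the other 3095, and lines join equal fold enrichment. All red points stand at the floor of the scaled input, the genome-wide mean of 1.51, and reach 163 fragments. Blue points rise with the input and fall into columns at whole numbers of input fragments.

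The strongest peaks were broad, and some of them lay near each other. The first 2 by −log10 q were neighbours at the last listed positions of Scaffold5086, with summits at 71264 and 72199, 935 bp apart. Their fragments, 163 (95% Poisson interval 139 to 190) and 161 (137 to 188), do not differ beyond counting error. Their widths were 474 bp and 608 bp, and the summit listed before them was 11352 bp away. The third, 662 bp wide on Scaffold4538, had 144 fragments (121 to 170) and its summit 1057 bp from the one before it. The widths of the 10 highest ran from 220 to 815 bp, against a median of 130 bp in the list. Of these, the peaks on Scaffold7987 at 7 to 704 and on Scaffold16692 at 4 to 288 were the only ones on their scaffolds, and both began next to the scaffold start.

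Those 10 peaks came from 5 scaffolds, which were picked by this value, so what follows on them is a description. Their 54 peaks had a median width of 259.5 bp against 129 bp on the other scaffolds, and 22 of the 54 were over 300 bp wide against 195 of 3095. The median number of fragments was 19 there and 20 elsewhere, while the upper quartile was 32.5 against 24 and the 95th percentile 101.8 against 33. Their median fold enrichment was 7.96 against 4.13, and 4 of the 54 had 10 fragments or fewer. At all 54 the background was the genome-wide mean, as it was at 126 of the other 3095 peaks. On Scaffold5086 the 37 summits ran from 9 to 163 fragments and fold enrichments from 3.98 to 65.2, so it held weak as well as strong peaks along 71.4 kb.

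Outside these scaffolds, the leading peaks were of several kinds. On Scaffold47 at 291605 to 291788 there were 69 fragments (53.7 to 87.3) where the input held 15, and the nearest listed summit was 521180 bp away. A peak on Scaffold518 at 505430 to 506011 had 123 fragments (102 to 147) where the input held 52. The peak on Scaffold919 at 19051 to 19187 was the only one on its scaffold and had 36 fragments (25.2 to 49.8), which was a fold enrichment of 12.9. The choice of these peaks was made from their values.

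Peaks were short, most of them little longer than a single fragment. The fragment length used in calling was 96 bp, as read from the shortest width, and 369 peaks (11.7%, 95% Wilson interval 10.6% to 12.9%) had exactly that width. The median was 130 bp, and 80.2% of peaks were at most 200 bp wide. Widths over 300 bp were found for 217 peaks (6.89%), which held 19.6% of the 522.8 kb covered. Only 49 peaks were over 500 bp and 6 over 1000 bp.

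Wider peaks had more fragments at the summit and a denser input. From 96 bp to the class of 501 to 1000 bp, the median number of fragments went from 16 to 30 and the scaled input from 1.89 to 3.02 times the genome-wide mean. Median fold enrichment did not follow this order: it was 4.17 at 96 bp, 4.43 at 97 to 110 bp, 3.77 at 151 to 200 bp and 5.51 at 501 to 1000 bp. Spearman's rho between width and fragments was 0.33 over 3149 peaks, and 0.33 without the 5 scaffolds above. A summit with more fragments has more bases past the limit around it, so the 2 measures are not independent.

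The 5 widest peaks were on 2 scaffolds. On Scaffold5086 the peak at 703 to 3940 was 3238 bp wide with its summit 104 bp from the start and 47 fragments (34.5 to 62.5), so nearly all of the interval lay on one side of the summit. The peak at 9808 to 12533, 2726 bp wide, had 26 fragments with the summit 463 bp from its start, and that at 52489 to 55021, 2533 bp wide, had 33 with the summit 1104 bp from its start. The rest were on Scaffold518, 1749 bp and 1482 bp wide, with 112 and 111 fragments. The input held 65 and 68 fragments at these summits, so their fold enrichments were 2.96 and 2.81. Breadth thus came with no raised input on Scaffold5086 and with a dense input on Scaffold518.

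Summits were most often in the middle of peaks of 111 to 150 bp and least often in the middle of peaks of 201 to 300 bp. Overall 74.7% of summits (73.2% to 76.2%) fell in the central 50% of their peak, and 51.1% (49.4% to 52.9%) lay left of the centre, an interval that includes 50%. The middle 20% of the peak held 36.6% of summits in 369 peaks of 96 bp and 38.8% in 623 peaks of 97 to 110 bp. The share was 48.7% in 602 peaks of 111 to 130 bp and 48.4% in 339 peaks of 131 to 150 bp. It held 31.1% in 591 peaks of 151 to 200 bp, and 8.09% in 408 peaks of 201 to 300 bp. In the last class 34.1% of summits lay between 20% and 40% of the width and 35.0% between 60% and 80%, so the summits fell into a left and a right group.

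The distance from the summit to the nearer edge changed less than the width. Its median was 55 bp at 131 to 150 bp, 53 bp at 151 to 200 bp and 65 bp at 201 to 300 bp, while the median width went from 139 to 238 bp. In the class of 301 to 500 bp the summit was 93.5 bp from the nearer edge and the middle 20% held 22.6% of summits. At 501 to 1000 bp the middle 20% held 16.3% of summits in 43 peaks. A summit within 10 bp of an edge was found for 80 peaks (2.54%), and 5 summits were on the first base of their peak.

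**Figure D2:**
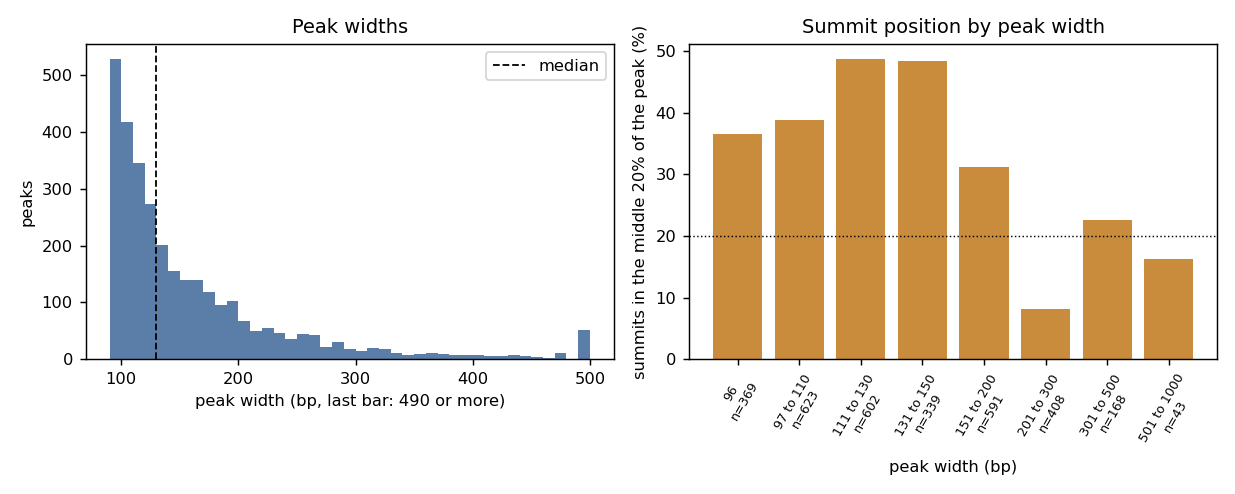
Left, the number of peaks by width in bp in steps of 10 bp, with wider peaks in the last bar and the median of 130 bp dashed; right, the percent of summits in the middle 20% of the peak for 8 classes of width, with a dotted line at the 20% of an even spread. The bar falls from 48.4% at 131 to 150 bp to 8.09% at 201 to 300 bp, below the dotted line.

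Peaks were spread over many scaffolds, with a few carrying many. The list named 1199 scaffolds, and 621 of these had 1 peak, 217 had 2, 185 had 3 or 4, 135 had 5 to 9 and 41 had 10 or more. The 120 scaffolds with most peaks held 1175 peaks (37.3%). Scaffolds without a peak are not in the list and scaffold lengths were not used, so the share of the assembly without a peak is not known here.

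Single peaks were shorter and rested on fewer fragments than peaks of crowded scaffolds, while the median fold enrichments were close. From scaffolds with 1 peak to those with 10 or more, the median width went from 117 to 153 bp, the median fragments from 17 to 22 and the scaled input from 2.27 to 2.90 times the mean. The median fold enrichments of these 2 classes were 4.26 and 4.27, with 4.06 to 4.09 in the classes between.

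Scaffolds with a summit at 500 kb or beyond differed widely in peak number. The last summit lay 500 kb or more from the scaffold start on 218 scaffolds, which held 1143 peaks. The median of these was 4 peaks, with quartiles of 3 and 7; 26 had a single peak and 25 had 10 or more. Counted up to the last summit, the density had a median of 0.542 peaks per 100 kb, from 0.0981 to 4.39, the highest being on Scaffold97. The distance to the last summit is a lower bound of scaffold length, so these densities are upper bounds. The scaffolds were picked by the position of a summit and not by length. Long scaffolds with peaks only nearer the start are left out, so the peak numbers depend on this choice.

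The scaffolds with most peaks differed in how these were arranged. On Scaffold5086, with 37 peaks, the median distance between neighbouring summits was 772 bp, and peaks took up 25.3% of the length from first to last summit. On Scaffold3, with 24 peaks, they were spread over 2190 kb with a median distance of 20912 bp, and at most 5 lay within 20 kb. Scaffold97 had 23 peaks over 517.9 kb, of which 12 lay within 20 kb between 46796 and 66258. Scaffold1954 had 23 over 110 kb, with 11 of them between 28756 and 48088, and Scaffold1358 had 23 over 264 kb, with 8 between 148422 and 164148. Scaffold54 also had 23, over 1156 kb, with at most 6 within 20 kb. The largest group within 20 kb thus held 52.2% of the peaks on Scaffold97 and 47.8% on Scaffold1954, but 20.8% on Scaffold3 and 26.1% on Scaffold54. Apart from Scaffold5086, with a median fold enrichment of 6.76, these scaffolds had medians from 3.92 to 4.79, against 4.15 for the list.

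**Figure D3:**
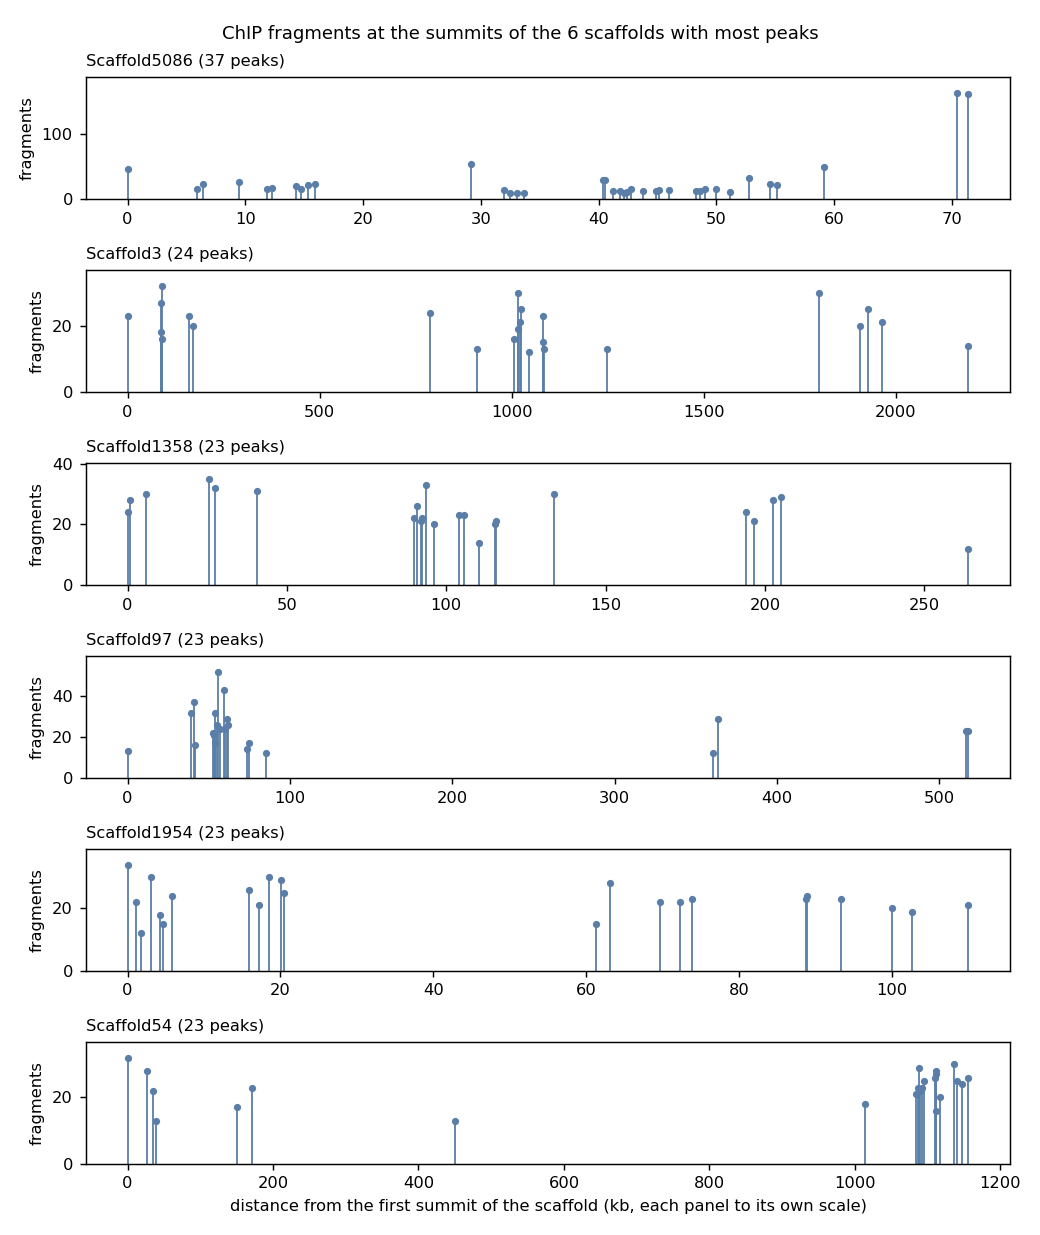
ChIP fragments at each summit (vertical, linear, own scale) along the 6 scaffolds with most peaks (4 of them tied at 23), against the distance in kb from the first summit (horizontal, own scale); each stem is 1 peak. Scaffold97 and Scaffold1954 have groups of stems near the left, Scaffold3 has groups far apart along 2190 kb, and Scaffold5086 has its 2 tallest stems at the right end.

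Distances between neighbouring summits were broadly spread, with 798 pairs within 5 kb, 508 at 5 to 50 kb and 644 beyond 50 kb. The 1950 distances ran from 122 bp to over 1 Mb, with a median of 11208.5 bp (95% order-statistic interval 9374 to 13896) and quartiles of 1631 and 86441 bp. On a log scale the counts had 2 broad maxima. One was at 1000 to 1778 bp, with 191 pairs, and the other between 56234 and 177828 bp, with 166 and 165 pairs in 2 bins of equal log width. Between them the counts fell to 119 pairs at 10000 to 17783 bp. Short scaffolds cannot hold long distances, so the upper part of this distribution also depends on the assembly.

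At short range no distance stood out sharply. The 34 pairs within 200 bp were joined by 111 pairs at 200 to 400 bp, 69 at 400 to 600 bp, 57 at 600 to 800 bp and 63 at 800 to 1000 bp. In steps of 50 bp, the counts were 30, 31, 23, 33 and 23 from 150 to 400 bp and 8 to 23 from 400 to 1000 bp. Only 3 pairs were closer than 150 bp. The smallest distance from the end of a peak to the start of the next was 69 bp, so the list shows no shorter gap. No width was under 96 bp either, so the list leaves little room for summits closer than 150 bp.

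**Figure D4:**
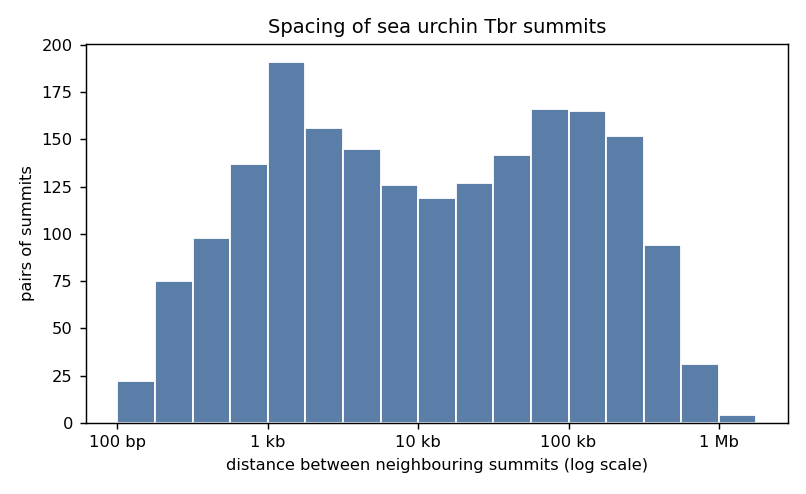
Pairs of neighbouring summits on the same scaffold (vertical) by their distance on a log scale (horizontal, bins of equal log width), over 1950 pairs. Rises stand at 1 to 2 kb and near 100 kb, with 119 pairs in the lowest bin between them.

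Most chains of close summits were pairs. Linking summits at most 1 kb from the next gave 258 chains with 592 peaks on 176 scaffolds: 206 pairs, 36 chains of 3, 12 of 4, 2 of 5 and 2 of 7. The median span from first to last summit was 560.5 bp, and the longest was 3029 bp. With a limit of 5 kb there were 421 chains with 1219 peaks (38.7%), of which 49 had 5 summits or more, on 44 scaffolds.

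The chains with most summits differed in input. The first chain of 7 was on Scaffold5086, with summits from 41137 to 43567, 9 to 30 fragments and a background at the floor, the genome-wide mean. The other was on Scaffold97, with summits from 58997 to 62026, 17 to 52 fragments and a median input 3.02 times the mean; its last peak was 1207 bp wide. A chain of 5 on Scaffold1453, from 138113 to 139990, had 44 to 91 fragments over an input 15.9 times the mean, so its fold enrichments were 2.33 to 3.52. Another chain of 5, on Scaffold92 from 299155 to 301459, had 20 to 38 fragments, an input 2.64 times the mean and fold enrichments from 4.19 to 7.80.

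With the 5 kb limit, the 10 chains with most summits had 9 to 20 over 7322 to 18775 bp. Their median scaled input ran from 1, the floor, to 11.8 times the genome-wide mean and their median fold enrichment from 3.11 to 9.94. Scaffold364 shows how such chains can fill a small part of a scaffold: its 21 peaks all lay in 107 kb, between 503089 and 610501, with 10 of them in a chain from 585753 to 596157. No peak was listed before position 503089 of that scaffold.

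Peaks with a near neighbour were wider, with similar fold enrichment. For 592 peaks whose nearest summit was within 1 kb, the median width was 157.5 bp. It was 149 bp for 627 peaks with the nearest at 1 to 5 kb, 125 bp for 628 at 5 to 50 kb, 121 bp for 681 beyond 50 kb and 117 bp for the 621 alone on their scaffold. The median fragments over these classes went from 22 to 17 and the scaled input from 3.02 to 2.27 times the mean. Fold enrichment had medians between 4.07 and 4.26, with quartiles that overlap throughout. Without the 5 scaffolds of the strongest peaks, the first class had 548 peaks and a median width of 155.5 bp. The part of input density in the widths was not tested.

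Broad peaks mostly had a neighbour within 5 kb. Of the 217 peaks over 300 bp wide, 56 (25.8%) had no other summit within that distance, against 1930 of all 3149 peaks (61.3%). These 56 had a median width of 371.5 bp, 25.5 fragments and a fold enrichment of 4.42, against 27 fragments and 4.62 for all 217.

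**Figure D5:**
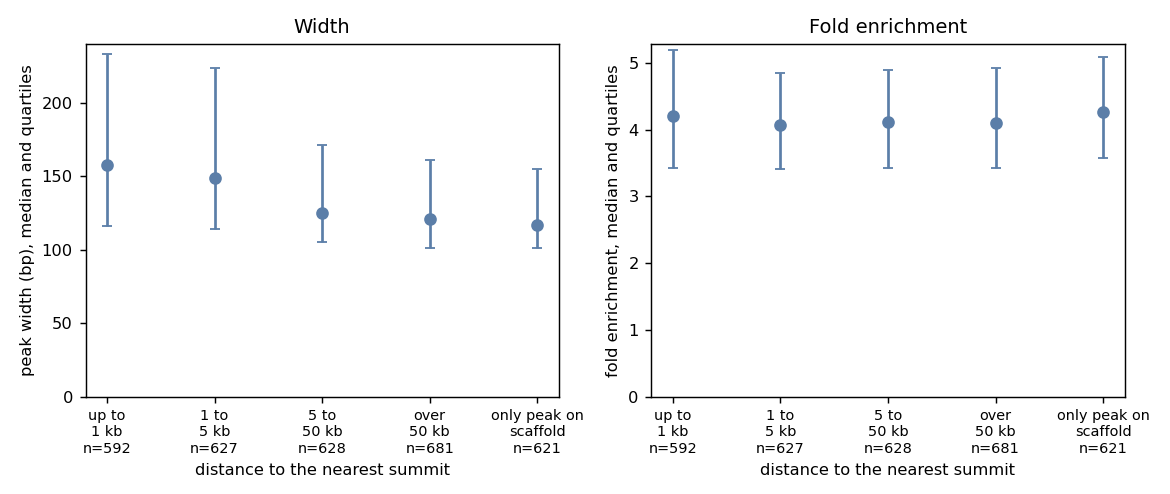
Median peak width in bp (left) and median fold enrichment (right), with bars from the lower to the upper quartile, for peaks grouped by the distance to the nearest summit. Width falls from 157.5 bp to 117 bp across the groups, while fold enrichment stays between 4.07 and 4.26.

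Close neighbours resembled each other more than distant ones in fragments. Spearman's rho between the fragments of neighbouring summits was 0.39 over 334 pairs within 1 kb, 0.28 over 464 pairs at 1 to 5 kb, 0.13 over 508 pairs at 5 to 50 kb and 0.013 over 644 pairs beyond 50 kb. Without the 5 scaffolds of the strongest peaks, the first 3 values were 0.32, 0.28 and 0.14. The scaled input of neighbours gave 0.53, 0.28, 0.21 and 0.013 in the same order, and 0.38, 0.21 and 0.19 for the first 3 without those scaffolds. Neighbours share the library and, at short range, the input windows, so these values are descriptions. The higher summit of a pair had 1.24 times the fragments of the lower in the median within 1 kb and 1.36 times beyond 50 kb.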

How the data were processed

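MACS2 2.1.0, Bowtie2 2.2.2, SAMtools 0.1.19 and CASAVA 1.8 are named in the submitters' processing notes; their roles and settings were not given in the sources used here. For the sea urchin, the authors deposited 1 peak list, called on a single ChIP library. Its columns hold the authors' fold enrichment (a ratio), −log10 p and −log10 q, the summit offset, and a score, which equals the deposited −log10 q times 10, cut to a whole number, in 100% of peaks. Positions are scaffold positions, made 1-based by adding 1 to the start.

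The pileup was recovered as in MACS2, where fold enrichment is pileup plus 1 over background plus 1 and p is the upper Poisson tail. Whole pileups up to 599 were tried, and 100% of peaks met the deposited −log10 p within 0.001. Backgrounds fell on steps of 0.572 per input read; a count of input fragments was called whole within 0.001. By the genome-wide mean, depth was 15.8 ChIP and 27.6 input reads per kb of the caller's genome size; total reads were not used here. The steps were run on simulated data made with the same formulas for fold enrichment and p, which checks the calculation only. Such data cannot show that the deposited values follow these formulas. The split between the 1 kb and 10 kb windows was not checked. Intervals of medians are 95% order-statistic intervals, those of shares are Wilson intervals, and those of fragments are exact Poisson intervals; peaks are not replicates and reads carry no molecular identifiers.

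Members and classes were chosen with earlier results of these data known. Peaks were named by a rule: the 10 highest −log10 q, the 5 highest fold enrichments, the 5 widest, the 5 with most fragments, the 3 lowest −log10 q, and the 5 scaffolds with most peaks, which came to 6 because 4 were tied at 23 peaks; others are said to be chosen after their values were seen. Scaffold364 and the scaffolds of densest input were also chosen that way. Python 3.11.15, scipy 1.17.1 and pandas 2.3.3 were used.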

Additional observations from a re-analysis of the deposited data

How the results depend on the processing

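Of 68 values under other settings, 36 stayed within the interval of the listed value, or within 1.5 times for the count of peaks. Those that moved are given here. With a −log10 q limit of 2, the median fold enrichment was 4.29 and the share of summits in the central 50% was 76.9%. With a limit of 5 there were 1352 peaks, 64.1% of scaffolds had a single peak, the median fold enrichment was 5.13, the median fragments 24, the central share 83.1% and the median summit distance 8127 bp. With a limit of 10 these were 276 peaks, 79.0%, 6.53, 30, 82.6% and 3042 bp, with a median width of 162.5 bp and 23.2% of neighbours within 1 kb. At a fold enrichment of 5 or more there were 761 peaks, with 74.7% of scaffolds having a single peak, a width of 126 bp, a median fold enrichment of 5.82, 22 fragments and a central share of 84.8%. Stricter limits leave fewer peaks by construction. The 54 peaks on the 5 scaffolds of the strongest peaks had a median −log10 q of 10.7, so they weigh more at a limit of 10. That limit was not run without them. With intervals within 500 bp merged, the central share was 71.7%, the median distance 20912 bp and the share of close neighbours 4.13%. Without scaffolds of 10 or more peaks, the width was 127 bp, the fragments 19, the distance 21145 bp and the close share 13.3%. Pairs counted as close were 9.13% within 500 bp, 28.1% within 2000 bp and 40.9% within 5000 bp, against 17.1% within 1 kb. Leaving out the 5 scaffolds of the strongest peaks, or peaks with an input 10 or more times the mean (chosen after seeing the data), moved none of the 8 measures out of range. No paired analysis was possible because each side has 1 library, so no replicate could be left out either. At this depth a median peak rests on 20 fragments, so most peaks cannot be ranked against each other.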

Other observations

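The peak names were numbered from 1 to 3149 with 0 missing, so the list has no gap left by peaks removed after numbering. Summits in the first 1000 bp of a scaffold numbered 39 (1.24%, 95% Wilson interval 0.907% to 1.69%). The last listed summit of a scaffold lay at a median of 154.9 kb from its start, and the farthest at 2346 kb.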
